A study of Mus musculus with 11 samples.

Results

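The enzymes that cut the extracellular matrix, and the proteins that hold these enzymes in check, were compared across 6 cell populations sorted from mouse bone. The genes were taken by name from the annotation of the array platform: the matrix metalloproteinases (MMPs, symbols Mmp with a number), the ADAM-TS proteases (Adamts with a number) and the tissue inhibitors of metalloproteinases (Timp1 to Timp4). Of 18193 genes with a probe set that names a single gene, 37 belonged to this set, namely 18 MMP, 15 ADAM-TS and 4 TIMP genes. Where a gene had several such probe sets, as 19 of the 37 did, the brightest of them on average across the 11 arrays was used. A probe set is a group of short DNA probes against the same transcript, and its value is a log2 signal, so that a difference of 1 is a doubling. Signals of different probe sets are not comparable with each other, and all comparisons below are between populations for the same gene.

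Mx1+Ocn- P-SSCs were skeletal stem cells of the periosteum, the membrane that covers bone, from mice carrying Mx1-Cre, a Rosa-Tomato reporter and Osteocalcin-GFP, whereas Mx1+Nes+ BM-SSCs were their counterparts in bone marrow, from mice in which Nestin-GFP took the place of Osteocalcin-GFP. Both were sorted as CD45-, CD31- and Ter119- cells that were positive for CD105 and CD140a. The Mx1 promoter that drives Cre is switched on by interferon and is active in blood cells too. In the study's methods, these mice were irradiated with 9.5 Gy at 4 weeks of age and received wild-type C57BL/6 marrow, and pIpC, an inducer of interferon, was given 6 to 8 weeks later at 25 mg per kg every other day for 10 days. Nes+ BMSCs were Nestin-GFP cells sorted with or without the Mx1 label, and a single array was made from them. The study describes CD51+ BMSCs as marrow cells with the same surface profile plus CD51. Their sample titles name CD45-, CD31-, Ter119- and CD51+ but neither CD105 nor CD140a. CD45+ cells were blood-lineage cells of the marrow, and Osx+ cells were osteolineage precursors that carry Osterix-GFP. GEO's source field names periosteal tissue for the Nes+ array, whose title names marrow, and for both Osx+ arrays, whose titles name no tissue. Populations were taken from the titles. The genotype and treatment of the mice behind the CD45+, CD51+ and Osx+ cells are not given in the sources used here. Apart from the Nes+ BMSCs, each population had 2 arrays, which the study calls biological repeats of sorts from 2 to 3 mice. The p-values measure the spread between these arrays, part of which may be technical.

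MMPs and ADAM-TS proteases are zinc-dependent enzymes that are made as inactive precursors. MMPs degrade collagens, gelatin and many other matrix proteins, and in bone they take part in replacing cartilage by bone and in the entry of blood cells into tissue. ADAM-TS proteases cut proteoglycans such as aggrecan and versican or trim procollagens. TIMPs bind the active site of these enzymes, and Timp3 stays attached to the matrix and also inhibits ADAM-TS proteases.

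The second array of each SSC population stood apart from the first, so most results that involve these populations are given with and without both second arrays. Without them each SSC population is a single array, and the p-values of that fit hold no spread between SSC arrays. The 3' beta-actin control lay between 13.23 and 14.25 on 9 arrays, at 12.78 on the second BM-SSC array and at 7.81 on the second P-SSC array, and the median of 43 ribosomal protein genes was 7.06 on P-SSC array 2 against at least 11.43 elsewhere. Over the 37 genes, the arrays of a pair correlated at 0.194 in P-SSCs and 0.866 in BM-SSCs, and at 0.987 to 0.997 in the other 3 pairs (a description across genes, which are not independent). In each SSC population 19 of the 37 genes had a standard deviation above 1 between arrays, and in the other populations none had. The median signal of an array was 4.43 on both CD45+ arrays, 4.59 and 4.94 in P-SSCs and 4.53 and 4.83 in BM-SSCs, so that centring each array on its median lowers every SSC value against CD45+ cells. The gate marker Ptprc, which encodes CD45, was at 12.06 and 12.05 in CD45+ cells but also at 10.23 and 10.17 in CD51+ BMSCs, a population sorted as CD45-, and at 7.42 and 4.90 in BM-SSCs. The signal of CD140a (Pdgfra) was at 11.29 on P-SSC array 1 and 4.41 on array 2. Fewer cells of a type and less RNA per cell cannot be told apart in such bulk samples.

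**Figure D1:**
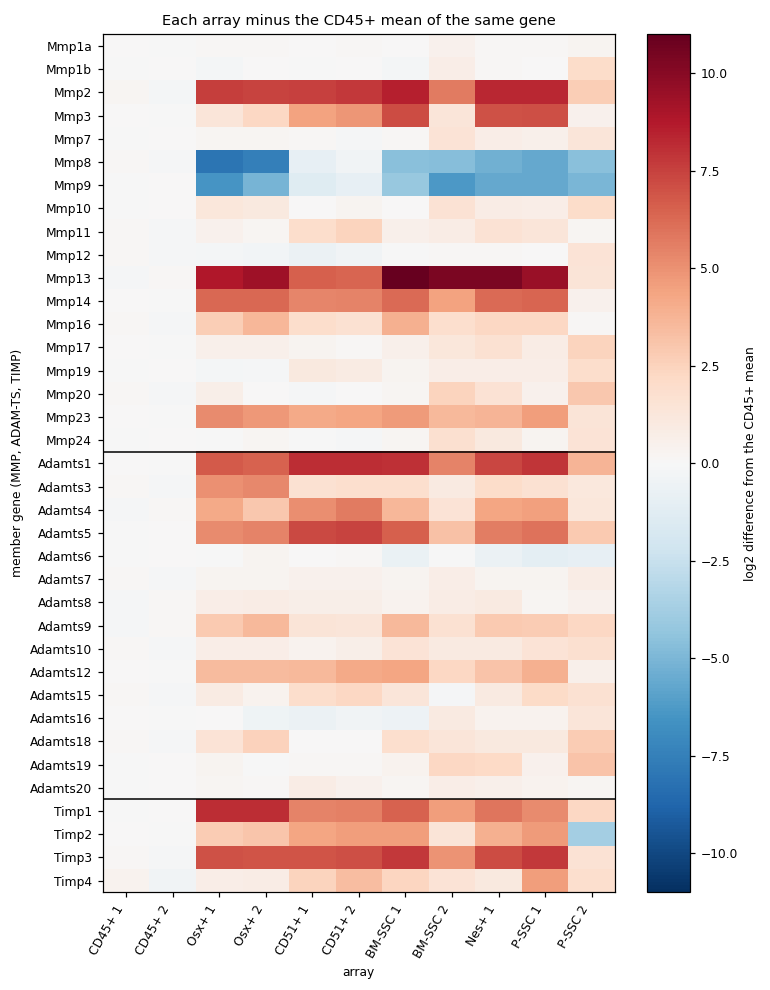
Log2 signal of each of the 37 genes (rows, by family) on each of the 11 arrays (columns), minus the mean of the 2 CD45+ arrays for the same gene. Red is above and blue below CD45+ cells. Mmp8 and Mmp9 are blue on all 9 stromal arrays, and P-SSC array 2 is paler than P-SSC array 1 for Mmp2, Mmp13, Mmp14 and Timp3.

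The interstitial collagenases, which make the first cut in fibrillar collagen, differed widely between populations. Mmp13, the collagenase of hypertrophic chondrocytes and osteoblasts, was at 2.21 and 2.46 in CD45+ cells, 11.10 and 11.64 in Osx+ cells, 8.89 and 8.77 in CD51+ BMSCs, 13.62 and 12.71 in BM-SSCs, 12.72 in Nes+ BMSCs, and 11.86 and 3.75 in P-SSCs. All stromal arrays lay above both CD45+ arrays, with P-SSC array 2 far below the rest. Mmp13 was higher than in CD45+ cells by 10.83 in BM-SSCs (standard error 2.11, adjusted p = 0.0226) and by 9.04 in Osx+ cells (adjusted p = 0.037), whereas the differences of 6.49 in CD51+ BMSCs and 5.47 in P-SSCs did not pass (adjusted p = 0.148 and 0.126). Without both second SSC arrays they passed too, at 6.49 and 9.52 (adjusted p = 3.57e-07 and 4.29e-07). The Mmp13 calls in BM-SSCs and Osx+ cells were lost with quantile normalization (adjusted p = 0.0501 and 0.103), and that in Osx+ cells with median centring (adjusted p = 0.0555).

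Mmp8, the collagenase of neutrophil granules, had the opposite pattern. It was at 11.28 and 10.96 in CD45+ cells, 10.18 and 10.71 in CD51+ BMSCs, 6.54 and 6.47 in BM-SSCs, 5.87 in Nes+ BMSCs, 5.50 and 6.54 in P-SSCs, and 3.09 and 3.62 in Osx+ cells. The CD51+ arrays were close to the CD45+ arrays, the SSC and Nes+ arrays lay in between, and Osx+ cells were lowest, with no overlap between Osx+ cells and any other population. Against CD45+ cells Mmp8 in P-SSCs was lower by 5.10 (standard error 0.439, adjusted p = 0.00128), by 4.62 in BM-SSCs (adjusted p = 0.00167) and by 7.77 in Osx+ cells (adjusted p = 0.000166), and these 3 calls held when any single array was left out. The P-SSC call was lost when the fit held P-SSCs and CD45+ cells alone (adjusted p = 0.102). With both second SSC arrays left out, the P-SSC and BM-SSC differences were -5.63 and -4.58 (adjusted p = 6.94e-06 and 1.85e-05). The difference of 0.68 between CD51+ BMSCs and CD45+ cells did not pass (adjusted p = 0.658). Mmp8 passed in 8 of the 11 comparisons, more than any other gene of the set.

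Mmp9, the gelatinase B of neutrophils, macrophages and osteoclasts, followed Mmp8. Its signal was 11.15 and 11.15 in CD45+ cells, 9.83 and 10.25 in CD51+ BMSCs, 6.96 and 4.82 in BM-SSCs, 5.50 in Nes+ BMSCs, 5.48 and 6.13 in P-SSCs, and 4.70 and 6.02 in Osx+ cells. The SSC, Nes+ and Osx+ arrays overlapped each other and all lay below the CD45+ and CD51+ arrays. Mmp9 was lower than in CD45+ cells, the P-SSC difference being -5.34 (standard error 0.728, adjusted p = 0.00603), the BM-SSC difference -5.25 (adjusted p = 0.00646) and the Osx+ difference -5.79 (adjusted p = 0.00275). The P-SSC and BM-SSC calls were lost when the fit held only the populations compared (adjusted p = 0.0959 and 0.0686), without CD45+ array 1 (adjusted p = 0.0679 and 0.0713) and without CD45+ array 2 (adjusted p = 0.0711 and 0.0735). With both second SSC arrays left out, these differences were -5.66 and -4.18 (adjusted p = 5.81e-05 and 0.000289).

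The summed signal of neutrophil genes was highest where both enzymes were highest, in CD45+ cells and CD51+ BMSCs. P-SSC array 2, with the low beta-actin control, had a lower sum than array 1 but higher Mmp8 (6.54 against 5.50) and Mmp9 (6.13 against 5.48). Several low genes of the set had their highest signal on that array, and nothing is read from this rise. The summed signal of 12 neutrophil markers (such as S100a8, S100a9, Ngp, Camp and Elane) was, on a log2 scale, 16.70 and 16.78 in CD45+ cells, 16.48 and 16.47 in CD51+ BMSCs, 14.83 and 14.65 in BM-SSCs, 14.10 in Nes+ BMSCs, 14.27 and 12.60 in P-SSCs, and 8.74 and 12.02 in Osx+ cells. Of the 12 markers, 2 were lower than in CD45+ cells in CD51+ BMSCs, 10 in Osx+ cells, 6 in P-SSCs and 4 in BM-SSCs, and 6 were higher in CD51+ BMSCs than in Osx+ cells. The part of neutrophil RNA in the values of Mmp8 and Mmp9 was not tested. The summed signal of 8 macrophage markers was 14.36 and 14.14 in CD45+ cells and 13.70 and 13.73 in CD51+ BMSCs. It was at most 10.41 on the other arrays. Lyz2 was the highest of the 8 in both populations, at 13.92 and 13.69 in CD45+ cells and 12.96 and 12.99 in CD51+ BMSCs. Against CD45+ cells, 3 of the 8 were higher in CD51+ BMSCs (Cd14, C1qa and C1qb), beside 2.95% of all probe sets. Another 3 were lower (Cd68, Csf1r and Adgre1), beside 2.90%. The part of macrophage RNA was not tested either.

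**Figure D2:**
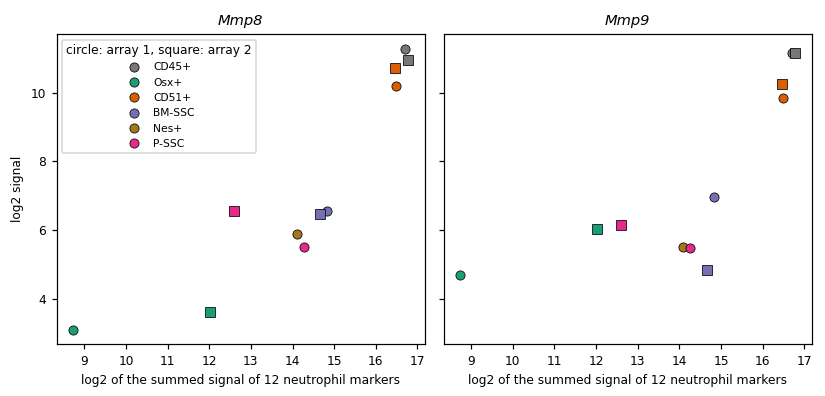
Log2 signal of Mmp8 (left) and Mmp9 (right) on each array against the log2 of the summed signal of 12 neutrophil markers on the same array. Circles are array 1, squares array 2, and colours are populations. The CD45+ and CD51+ arrays, with sums between 16.47 and 16.78, hold the highest values of both genes, and Mmp8 on Osx+ array 1 has the lowest at 3.09. The points share arrays and normalization, so no correlation is given.

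Mmp13 and Mmp8 are neighbours in the genome. In the RefSeq annotation of GRCm38.p6 Mmp13, Mmp12, Mmp1b, Mmp3, Mmp1a, Mmp10, Mmp8, Mmp20 and Mmp7 follow each other, in this order, within 10 consecutive protein-coding genes of chromosome 9. These 9 genes did not share a pattern. Mmp3, stromelysin 1, which cuts proteoglycans and activates other MMPs, was outside the rule for named genes and was added after its values were seen, as was Mmp14 below. Mmp3 was at 3.69 and 3.64 in CD45+ cells, 4.99 and 5.93 in Osx+ cells, 8.12 and 8.52 in CD51+ BMSCs, 10.65 in Nes+ BMSCs, 10.88 and 4.96 in BM-SSCs, and 10.79 and 4.11 in P-SSCs. The first arrays of both SSC populations matched Nes+ BMSCs and the second arrays were near CD45+ and Osx+ cells, and Mmp3 passed in none of the 11 comparisons with all arrays. Without both second arrays it was higher than in Osx+ cells by 2.86 in CD51+ BMSCs (adjusted p = 0.000314), by 5.33 in P-SSCs (adjusted p = 0.000104) and by 5.42 in BM-SSCs (adjusted p = 0.000127). The other 6 genes of the run varied by at most 1.73 between population means (Mmp20), and none of them passed in any comparison with all arrays.

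**Figure D3:**
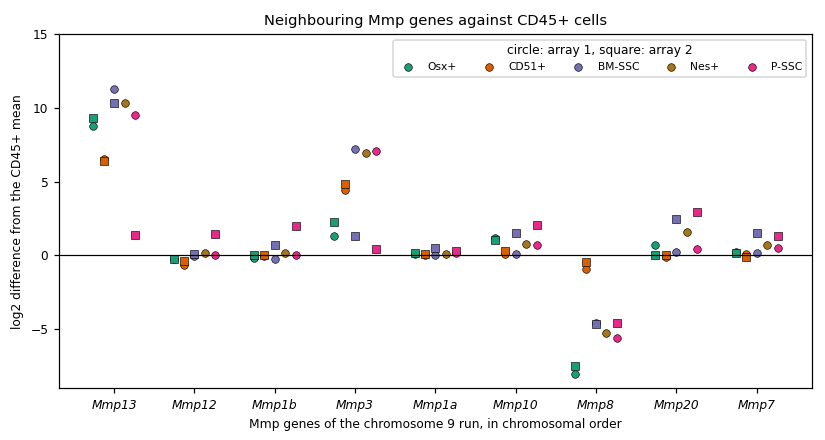
Log2 difference of each array from the CD45+ mean for the 9 neighbouring Mmp genes of chromosome 9, in chromosomal order (not to scale). Circles are array 1, squares array 2, and colours are populations. Mmp13 lies above 0 on all stromal arrays, Mmp8 lies below 0 on all of them, and Mmp3 is near 7 on BM-SSC array 1, P-SSC array 1 and the Nes+ array only.

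The stretches just before the transcription start of Mmp13, Mmp3 and Mmp8 are shown because these 3 neighbours had 3 different patterns across the populations. Sequences are from RefSeq (GRCm38.p6), plus strand, the 120 bases that end at the base before the start. Capitals mark the letters of the AP-1 motif (TGANTCA) and the RUNX motif (TGTGGT, or ACCACA on the other strand), searched on both strands.
Mmp13 (chr9:7272394-7272513): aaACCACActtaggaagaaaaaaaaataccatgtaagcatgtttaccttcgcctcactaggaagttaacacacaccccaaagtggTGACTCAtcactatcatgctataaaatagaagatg
Mmp3 (chr9:7445702-7445821): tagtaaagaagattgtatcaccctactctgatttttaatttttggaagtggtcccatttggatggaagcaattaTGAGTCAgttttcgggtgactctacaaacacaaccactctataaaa
Mmp8 (chr9:7558309-7558428): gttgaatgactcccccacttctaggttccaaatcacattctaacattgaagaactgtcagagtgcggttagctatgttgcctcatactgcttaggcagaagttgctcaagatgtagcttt

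The AP-1 letters begin at position -35 of Mmp13 and -46 of Mmp3, counted from the start, and Mmp13 also holds the RUNX letters at -118. In windows from 250 bases before to 50 after the start, 8 of the 9 neighbouring genes held the AP-1 letters and Mmp8 did not. Of the other 14 genes of the set with a window in the table, 0 held them. Over all 32851 windows of the table the AP-1 letters were found in 7.81% and the RUNX letters in 16.8%, and among the 26 windows of the set in 30.8% and 19.2%. The motifs do not overlap each other in the stretches shown, and a match describes letters, not binding.

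Mmp2 and Mmp14 work as a pair, since membrane-bound Mmp14 activates the precursor of gelatinase A, Mmp2. Mmp2 was at 3.70 and 3.36 in CD45+ cells, 11.17 and 10.97 in Osx+ cells, 11.04 and 11.29 in CD51+ BMSCs, 12.06 and 9.27 in BM-SSCs, 11.78 in Nes+ BMSCs, and 11.78 and 6.26 in P-SSCs. Every stromal array was above the CD45+ arrays, and the 2 lowest of them were the second SSC arrays. Mmp2 was higher than in CD45+ cells by 7.13 in BM-SSCs (standard error 1.61, adjusted p = 0.0369), by 7.63 in CD51+ BMSCs (adjusted p = 0.0357) and by 7.54 in Osx+ cells (adjusted p = 0.026), whereas the P-SSC difference of 5.49 did not pass (adjusted p = 0.0716). After median centring the first 2 of these calls were lost (adjusted p = 0.0572 and 0.0564). Leaving out the second SSC arrays gave 8.25 in P-SSCs and 8.52 in BM-SSCs (adjusted p = 4.29e-07 and 3.46e-07). Mmp14 was at 4.60 and 4.53 in CD45+ cells, 10.91 and 10.87 in Osx+ cells, 9.89 and 10.03 in CD51+ BMSCs, 10.81 and 9.01 in BM-SSCs, 10.81 in Nes+ BMSCs, and 10.98 and 5.07 in P-SSCs. Its arrays did not overlap with CD45+ cells, yet it passed in none of the 11 comparisons with all arrays (adjusted p = 0.051 for the difference of 6.33 between Osx+ and CD45+ cells). Without both second SSC arrays it was higher than in CD45+ cells by 6.42 in P-SSCs (adjusted p = 4.29e-07).

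Mmp23 and Mmp11 also passed in stroma. Mmp23, a membrane-anchored MMP, was at 3.80 and 3.77 in CD45+ cells, 9.02 and 8.57 in Osx+ cells, 7.98 and 8.09 in CD51+ BMSCs, 8.46 and 7.32 in BM-SSCs, 7.55 in Nes+ BMSCs, and 8.35 and 5.18 in P-SSCs. It was higher than in CD45+ cells by 4.11 in BM-SSCs (standard error 0.912, adjusted p = 0.0349), by 4.25 in CD51+ BMSCs (adjusted p = 0.0381) and by 5.01 in Osx+ cells (adjusted p = 0.0136), and again the first 2 calls were lost after median centring (adjusted p = 0.0651 and 0.0673). The P-SSC difference of Mmp23 was 2.98 (adjusted p = 0.0789). Leaving out the second SSC arrays gave 4.56 in P-SSCs and 4.68 in BM-SSCs (adjusted p = 3.58e-06 and 3.19e-06). Mmp11, stromelysin 3, which is activated inside the cell by furin, was at 6.08 and 6.60 in CD51+ BMSCs and between 4.09 and 5.78 on all other arrays, so that the CD51+ arrays lay above the rest. Mmp11 was higher in CD51+ BMSCs than in CD45+ cells by 2.16 (standard error 0.430, adjusted p = 0.0295), and its call was lost with quantile normalization (adjusted p = 0.198).

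**Figure D4:**
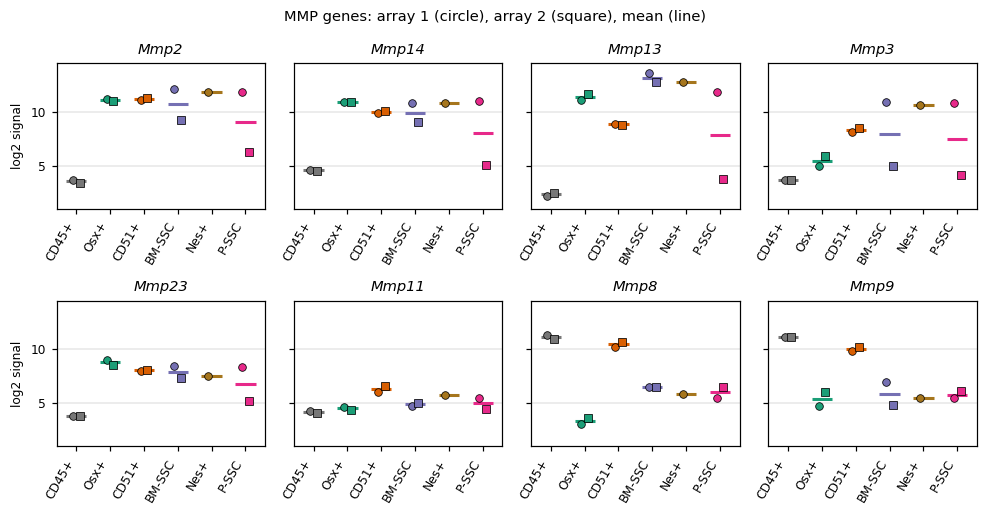
Log2 signal of 8 MMP genes in the 6 populations. Circles are array 1, squares array 2, and lines are population means (a single array for Nes+). Mmp2, Mmp14, Mmp13 and Mmp23 are low in CD45+ cells, Mmp8 and Mmp9 are high in CD45+ cells and CD51+ BMSCs, and the second P-SSC array lies far below the first for Mmp2, Mmp14, Mmp13 and Mmp3.

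Among the ADAM-TS proteases, Adamts1, Adamts4, Adamts5 and Adamts9, which cut aggrecan or versican, were lower in CD45+ cells than on every stromal array. Adamts1 was at 2.83 and 2.79 in CD45+ cells, 9.51 and 9.32 in Osx+ cells, 10.94 and 10.93 in CD51+ BMSCs, 10.82 and 8.30 in BM-SSCs, 10.14 in Nes+ BMSCs, and 10.69 and 6.54 in P-SSCs. It passed against CD45+ cells in all 4 populations tested. The difference was 8.13 for CD51+ BMSCs (standard error 1.27, adjusted p = 0.0132), 6.75 for BM-SSCs (adjusted p = 0.0201), 6.61 for Osx+ cells (adjusted p = 0.0173) and 5.81 for P-SSCs (adjusted p = 0.0315). The call in P-SSCs was lost with median centring (adjusted p = 0.0524). When the fit held only the populations compared, the P-SSC and BM-SSC calls were lost (adjusted p = 0.199 and 0.0578). When the second SSC arrays were dropped, the P-SSC and BM-SSC differences were 7.88 and 8.01 (adjusted p = 3.09e-07 and 2.39e-07).

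Adamts5, the main aggrecanase of mouse cartilage and the neighbour of Adamts1 on chromosome 16, was at 3.25 and 3.34 in CD45+ cells, 8.50 and 8.75 in Osx+ cells, 10.56 and 10.74 in CD51+ BMSCs, 9.88 and 6.55 in BM-SSCs, 8.91 in Nes+ BMSCs, and 9.23 and 6.15 in P-SSCs. As for Adamts1, the CD51+ arrays were the highest. Adamts5 was higher than in CD45+ cells by 7.36 in CD51+ BMSCs (standard error 1.20, adjusted p = 0.0148), by 5.33 in Osx+ cells (adjusted p = 0.0317) and by 4.92 in BM-SSCs (adjusted p = 0.0466), while the P-SSC difference of 4.39 did not pass (adjusted p = 0.0591). The last 2 calls were lost with median centring (adjusted p = 0.0563 and 0.0786). When the second SSC arrays were dropped, the P-SSC and BM-SSC differences were 5.93 and 6.59 (adjusted p = 6.91e-07 and 4.47e-07). Adamts4, the other classical aggrecanase, was at 3.31 and 3.52 in CD45+ cells, 7.60 and 6.38 in Osx+ cells, 8.51 and 9.12 in CD51+ BMSCs, 7.07 and 4.91 in BM-SSCs, 7.74 in Nes+ BMSCs, and 7.95 and 4.65 in P-SSCs. It passed in CD51+ BMSCs against CD45+ cells by 5.40 (standard error 1.11, adjusted p = 0.032), and not with median centring (adjusted p = 0.0553) or quantile normalization (adjusted p = 0.127). Its P-SSC and BM-SSC differences of 2.88 and 2.57 did not pass with all arrays (adjusted p = 0.124 and 0.205) and passed without the second SSC arrays, at 4.54 and 3.65 (adjusted p = 0.000167 and 0.000565).

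Adamts9, a versican-cutting protease, differed less between the 2 arrays of each SSC population than Adamts1, Adamts4 and Adamts5. It was at 4.04 and 4.34 in CD45+ cells, 7.10 and 7.72 in Osx+ cells, 5.63 and 5.52 in CD51+ BMSCs, 7.73 and 5.84 in BM-SSCs, 7.04 in Nes+ BMSCs, and 6.99 and 6.46 in P-SSCs. It was higher than in CD45+ cells by 2.53 in P-SSCs (standard error 0.603, adjusted p = 0.0405), by 2.59 in BM-SSCs (adjusted p = 0.0407) and by 3.22 in Osx+ cells (adjusted p = 0.0153), and the first 2 calls were lost with median centring (adjusted p = 0.0859 and 0.0838). The P-SSC and BM-SSC differences became 2.80 and 3.54 once the second SSC arrays were dropped (adjusted p = 0.000128 and 4.07e-05). With its second probe set the calls in BM-SSCs and Osx+ cells were lost (adjusted p = 0.119 and 0.678). Adamts10, which acts on fibrillin microfibrils, was at 5.90 and 5.69 in CD45+ cells and 7.26 and 7.52 in P-SSCs, with all other arrays from 6.19 to 7.33. The P-SSC excess of 1.60 passed (standard error 0.327, adjusted p = 0.0253), a call that was lost with median centring (adjusted p = 0.0515), with quantile normalization (adjusted p = 0.0625) and with a variance trend (adjusted p = 0.0573), and its second probe set differed by 0.09 (adjusted p = 0.816). With the second SSC arrays dropped the P-SSC excess was 1.47 (adjusted p = 0.000433).

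Adamts3, which removes the amino-terminal propeptide of procollagens, set Osx+ cells apart. It was at 8.71 and 8.94 in Osx+ cells, against 3.76 and 3.53 in CD45+ cells, 5.31 and 5.48 in CD51+ BMSCs, 5.46 and 4.66 in BM-SSCs, 5.66 in Nes+ BMSCs, and 5.31 and 4.82 in P-SSCs. Both Osx+ arrays were more than 3 log2 units above every other array. Adamts3 was higher in Osx+ than in CD45+ cells by 5.18 (standard error 0.379, adjusted p = 0.000302), and the difference from Osx+ cells was -3.43 for CD51+ BMSCs (adjusted p = 0.00539), -3.76 for P-SSCs (adjusted p = 0.00752) and -3.77 for BM-SSCs (adjusted p = 0.00851). The last 2 calls were lost when the fit held only the populations compared (adjusted p = 0.435 and 0.295). With the second SSC arrays dropped these 2 differences were -3.52 and -3.37. In CD51+ BMSCs it was also higher than in CD45+ cells by 1.75 (adjusted p = 0.0392), a call that was lost with median centring (adjusted p = 0.0776) and quantile normalization (adjusted p = 0.205). The second probe set of Adamts3 did not show the pattern: its population means lay between 2.61 and 3.40, its correlation with the first over the 11 arrays was 0.198, and none of the 5 calls passed with it. Chondrocyte genes were high in the same cells, with a summed log2 signal of 11 markers of 16.89 and 16.91 in Osx+ cells, 13.83 and 14.17 in CD51+ BMSCs, 13.79 and 11.89 in BM-SSCs, 13.45 and 8.78 in P-SSCs and 7.0 and 6.94 in CD45+ cells, and their part in the Adamts3 values was not tested.

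**Figure D5:**
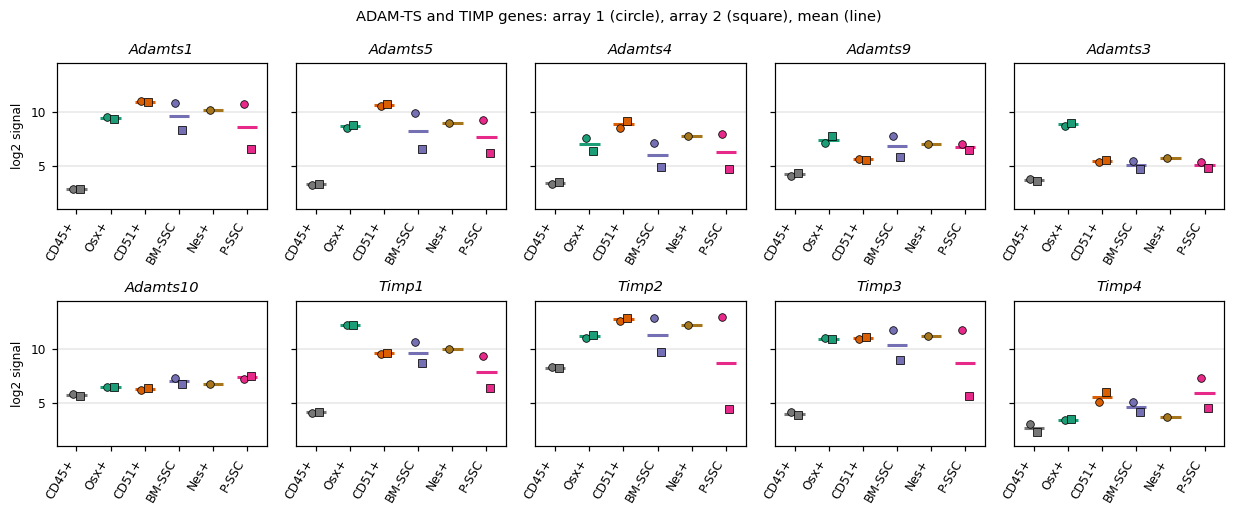
Log2 signal of 6 ADAM-TS genes and the 4 TIMP genes in the 6 populations. Circles are array 1, squares array 2, and lines are population means (a single array for Nes+). Adamts3 and Timp1 are highest in Osx+ cells, Adamts1 and Adamts5 in CD51+ BMSCs, and Timp2 on P-SSC array 2 is the lowest of all arrays.

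The inhibitors differed from each other. Timp1 was at 4.08 and 4.20 in CD45+ cells, 12.27 and 12.24 in Osx+ cells, 9.56 and 9.67 in CD51+ BMSCs, 10.67 and 8.72 in BM-SSCs, 10.01 in Nes+ BMSCs, and 9.35 and 6.43 in P-SSCs. Osx+ cells held the highest values and CD45+ cells the lowest, without overlap. Timp1 passed against CD45+ cells in all 4 populations, with a difference of 8.11 for Osx+ cells (standard error 0.940, adjusted p = 0.00192), 5.55 for BM-SSCs (adjusted p = 0.0136), 5.47 for CD51+ BMSCs (adjusted p = 0.0177) and 3.75 for P-SSCs (adjusted p = 0.0475). The call in P-SSCs was lost with a variance trend (adjusted p = 0.0765) and after median centring (adjusted p = 0.086). When the fit held only the populations compared, the P-SSC and BM-SSC calls were lost (adjusted p = 0.22 and 0.0562). With the second SSC arrays dropped the P-SSC and BM-SSC differences were 5.21 and 6.52 (adjusted p = 6.92e-07 and 3.5e-07).

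Timp3 was at 4.15 and 3.93 in CD45+ cells, 11 and 10.94 in Osx+ cells, 10.97 and 11.10 in CD51+ BMSCs, 11.82 and 9.02 in BM-SSCs, 11.21 in Nes+ BMSCs, and 11.80 and 5.64 in P-SSCs. It passed only in Osx+ against CD45+ cells, by 6.93 (standard error 1.75), just under the threshold (adjusted p = 0.04996), and not with median centring, quantile normalization or a variance trend (adjusted p = 0.0771, 0.0725 and 0.0542). The difference of 6.99 in CD51+ BMSCs had an adjusted p of 0.0634. Leaving out the second SSC arrays, Timp3 was higher than in CD45+ cells in all 4 populations, by 6.93 to 7.78.

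Timp2, which inhibits MMPs and also helps Mmp14 to activate Mmp2, was expressed by blood cells too. It was at 8.32 and 8.25 in CD45+ cells, 11.04 and 11.33 in Osx+ cells, 12.63 and 12.92 in CD51+ BMSCs, 12.86 and 9.71 in BM-SSCs, 12.23 in Nes+ BMSCs, and 12.96 and 4.50 in P-SSCs. On the probe set used, P-SSC array 2 lay below the CD45+ arrays, whereas array 1 was the highest of all. Timp2 had 6 probe sets, which differed in this. Another had a mean of 9.7 in P-SSCs and 6.6 in CD45+ cells, and a further probe set 8.7 and 8.9. Timp4, which is best known from heart, was at 3.04 and 2.32 in CD45+ cells, 3.41 and 3.49 in Osx+ cells, 5.11 and 6.03 in CD51+ BMSCs, 5.08 and 4.19 in BM-SSCs, 3.75 in Nes+ BMSCs, and 7.31 and 4.56 in P-SSCs. Neither passed in any comparison with all arrays (Timp4 in P-SSCs against CD45+ cells differed by 3.25, adjusted p = 0.052). In the fit without both second SSC arrays, Timp4 was higher in P-SSCs than in CD45+ cells by 4.63 (adjusted p = 7.39e-05) and than in CD51+ BMSCs by 1.74 (adjusted p = 0.0172).

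The remaining 19 genes had signals from 1.75 to 7.46 and passed in none of the 11 comparisons with all arrays. Their population means spanned 0.27 (Mmp1a) to 3.90 (Adamts12). Adamts12, a protease of cartilage proteins, was at 3.11 and 3.02 in CD45+ cells, 6.54 and 6.54 in Osx+ cells, 6.65 and 7.27 in CD51+ BMSCs, 7.37 and 5.35 in BM-SSCs, 6.22 in Nes+ BMSCs, and 7.0 and 3.59 in P-SSCs. With the second SSC arrays dropped it was higher than in CD45+ cells by 3.94 in P-SSCs (adjusted p = 1.64e-05) and 4.31 in BM-SSCs (adjusted p = 1.02e-05). Mmp16, a membrane-type MMP, spanned 3.16, with 3.69 and 3.47 in CD45+ cells and 6.27 and 7.20 in Osx+ cells. Several low genes, such as Adamts19, Mmp20 and Mmp17, had their highest signal on P-SSC array 2 (5.63, 5.84 and 6.59).

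Against CD45+ cells, the comparison of sorted stromal populations with blood-lineage cells, more of the set was higher than lower with the values as deposited. In CD51+ BMSCs Ptprc and neutrophil genes were also high, and 6 of 7 skeletal muscle markers were higher than in CD45+ cells. The part of such cells in the CD51+ counts was not tested. In P-SSCs 4 of the 37 genes were higher (Adamts1, Adamts9, Adamts10 and Timp1) and 2 lower (Mmp8 and Mmp9), beside 2.48% higher and 7.29% lower of all 45037 probe sets tested. In BM-SSCs 7 were higher and 2 lower, beside 2.18% and 6.26%, in CD51+ BMSCs 8 were higher and 0 lower, beside 2.95% and 2.90%, and in Osx+ cells 9 were higher and 2 lower, beside 3.65% and 5.62%. In the same order of populations, the median difference of the 37 genes was 1.60, 1.35, 0.99 and 0.77, against 0.38, 0.18, -0.085 and 0.02 over all probe sets. With median centring the counts were 0 higher and 3 lower in P-SSCs and 3 higher and 2 lower in BM-SSCs. In that setting 11.5% and 9.49% of all probe sets passed in either direction, and no higher call was left in P-SSCs. The arrays did not overlap with those of CD45+ cells for 34, 33, 32 and 31 of the 37 genes, beside 72.3%, 63.1%, 69.3% and 68.1% of all probe sets. These 4 comparisons share the CD45+ arrays, and whether the counts differ between populations was not tested. Without both second SSC arrays, 27, 23, 24 and 23 of the 37 genes passed, beside 48.6%, 37.4%, 36.4% and 41.4% of all probe sets, and in that fit each SSC population is a single array taken to vary like the others.

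Against Osx+ cells, titled osteolineage precursors, in which chondrocyte genes were also high, few of the set passed. Of the 37 genes 1 was higher in P-SSCs (Mmp8, by 2.66, adjusted p = 0.0471) and 1 lower (Adamts3), beside 0.0466% and 0.762% of all probe sets. In BM-SSCs also 1 was higher (Mmp8, by 3.15, adjusted p = 0.0282) and 1 lower (Adamts3), beside 0.0311% and 0.584%. In CD51+ BMSCs Mmp8 was higher by 7.09 (adjusted p = 0.00189), Mmp9 was higher by 4.68 (adjusted p = 0.0189) and Adamts3 was lower, 2 higher and 1 lower beside 1.51% and 0.711%. With quantile normalization the higher calls of Mmp8 in both SSC populations (adjusted p = 0.167 and 0.162) and of Mmp9 in CD51+ BMSCs (adjusted p = 0.0829) were lost, and the lower calls of Adamts3 held. In a fit of only the populations compared, Adamts3 did not pass in P-SSCs (adjusted p = 0.435) or BM-SSCs (adjusted p = 0.295). Mmp8 did not pass there either (adjusted p = 0.511 and 0.326). Each Adamts3 call against Osx+ cells was also lost with some single array left out. With the second SSC arrays dropped Mmp8 was higher by 2.14 in P-SSCs and 3.18 in BM-SSCs (adjusted p = 0.00224 and 0.000587). The Mmp8 calls were also lost with a variance trend (adjusted p = 0.126 and 0.0853). Once the second SSC arrays were left out, 20 genes passed for CD51+ BMSCs, 14 for P-SSCs and 14 for BM-SSCs, beside 24.7%, 26.1% and 14.6%. In that fit the difference of Timp1 from Osx+ cells was -2.64, -2.90 and -1.59 in the same order, and that of Timp2 was 1.59, 1.78 and 1.67.

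P-SSCs and BM-SSCs, the stem cells of periosteum and marrow, did not differ in any gene of the set that passed the test, with 0 of 37 genes beside 0.00% of all probe sets in limma. At an unadjusted p under 0.05 there were 2, Adamts15, with a P-SSC excess of 1.32 (standard error 0.498), and Mmp13, 5.36 lower in P-SSCs (standard error 2.11), both with an adjusted p of 0.98. Without the second arrays, Mmp13 was lower in P-SSCs by 1.76 (adjusted p = 0.0306) and Timp1 by 1.31 (adjusted p = 0.023), 2 genes beside 2.06% of all probe sets. With P-SSC array 1 left out instead, 11 genes passed beside 15.7% of all probe sets, and with any other array left out 0 did.

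Against CD51+ BMSCs, Mmp8 passed alone. It was lower by 4.43 in P-SSCs (adjusted p = 0.0119), 1 of 37 genes beside 0.591% of all probe sets that were lower, and by 3.94 in BM-SSCs (adjusted p = 0.0177), 1 of 37 beside 0.591%. Both calls were lost with quantile normalization (adjusted p = 0.171 and 0.24). With the second SSC arrays dropped they were -4.95 and -3.90 (adjusted p = 0.000168 and 0.000301). Mmp9 was lower by 4.24 and 4.15 without passing (adjusted p = 0.0615 and 0.0679). With both second SSC arrays left out, 15 genes passed in P-SSCs and 17 in BM-SSCs, beside 29.6% and 14.2%. Among them Mmp13 was higher by 3.03 in P-SSCs (adjusted p = 0.000438) and 4.79 in BM-SSCs (adjusted p = 7.83e-05), and Adamts5 was lower by 1.43 (adjusted p = 0.00247) and 0.77 (adjusted p = 0.0331).

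Between BM-SSCs and the single array of Nes+ BMSCs, 0 of the 37 genes passed in limma (0 also at an unadjusted p under 0.05), beside 0.00% of all probe sets. When BM-SSC array 2 and P-SSC array 2 were left out, which sets a single array against a single array, 13 passed, beside 27.9%.

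Some genes that activate, bind or clear these enzymes were higher than in CD45+ cells as well. Of 25 such regulators measured, 12 rose against CD45+ cells in CD51+ BMSCs, 7 in Osx+ cells, 5 in P-SSCs and 3 in BM-SSCs, and none fell. Of all probe sets 2.95%, 3.65%, 2.48% and 2.18% were higher and 2.90%, 5.62%, 7.29% and 6.26% lower, in the same order. With the second SSC arrays left out, the median difference of the regulators was 2.26 in P-SSCs and 1.44 in BM-SSCs. Over all probe sets it was 0.08 and -0.013. The proprotein convertase Pcsk5, which activates protease precursors, was higher by 5.25 in CD51+ BMSCs, 4.31 in Osx+ cells, 3.13 in P-SSCs and 3.69 in BM-SSCs. Bmp1, the procollagen C-proteinase, was higher by 4.34, 4.02, 3.0 and 3.53, and its enhancer Pcolce2 by 9.65 in CD51+ BMSCs and 9.84 in Osx+ cells. Plau, the urokinase that generates plasmin, was higher in CD51+ BMSCs than in Osx+ cells by 4.38, and the ADAM-TS-like protein Adamtsl3 by 4.15. They were 2 of 4 regulators that passed there, all higher, beside 1.51% of all probe sets.

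Of 21 related proteases, 0 were higher and 3 lower than in CD45+ cells in P-SSCs, and 4 higher and 2 lower in BM-SSCs. In CD51+ BMSCs 3 were higher and 1 lower, and in Osx+ cells 5 higher and 3 lower. Of all probe sets 2.48%, 2.18%, 2.95% and 3.65% were higher and 7.29%, 6.26%, 2.90% and 5.62% lower, in the same order. Without both second SSC arrays the median difference of the related proteases was 1.06 in P-SSCs and 0.67 in BM-SSCs. The median differences of these lists from CD45+ cells were, for CD51+ BMSCs, Osx+ cells, P-SSCs and BM-SSCs in turn, 2.99, 1.43, 1.07 and 1.10 for the regulators and 0.82, 0.39, 0.77 and 0.58 for the related proteases, read against -0.085, 0.02, 0.38 and 0.18 over all probe sets. The cathepsin Ctss of antigen-presenting cells fell by 7.74 in Osx+ cells, 7.51 in P-SSCs, 2.82 in CD51+ BMSCs and 6.68 in BM-SSCs, and it was also lower in P-SSCs and BM-SSCs than in CD51+ BMSCs by 4.69 and 3.86. The fibroblast activation protein Fap was higher than in CD45+ cells by 8.62 in BM-SSCs and 8.02 in Osx+ cells, and the serine protease Htra3 by 7.54 in CD51+ BMSCs and 6.65 in Osx+ cells.

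Of 16 matrix substrates, 9 were higher than in CD45+ cells in Osx+ cells, 6 in CD51+ BMSCs, 6 in BM-SSCs and 2 in P-SSCs, and none was lower. Of all probe sets 3.65%, 2.95%, 2.18% and 2.48% were higher, in the same order. The median difference of the substrates was 7.96 in Osx+ cells, 5.64 in CD51+ BMSCs, 4.75 in BM-SSCs and 2.87 in P-SSCs. Without both second SSC arrays it was 5.63 in BM-SSCs and 3.86 in P-SSCs. The fibrillar collagen gene Col3a1 was higher by 10.92 in BM-SSCs, 11.11 in CD51+ BMSCs and 11.16 in Osx+ cells, and Acan, which encodes the aggrecan cut by Adamts4 and Adamts5, by 9.18 in Osx+ cells, 5.31 in CD51+ BMSCs, 3.63 in BM-SSCs and 3.20 in P-SSCs. Against Osx+ cells, 4 substrates were lower in each SSC population, beside 0.762% of all probe sets in P-SSCs and 0.584% in BM-SSCs. All were cartilage genes: Col2a1 (8.76 lower in P-SSCs and 5.41 in BM-SSCs), Col10a1 (7.34 and 7.57), Matn1 (7.19 and 8.29) and Acan (5.98 and 5.55). Once the second SSC arrays were left out, the median difference of the substrates from Osx+ cells was -0.30 in P-SSCs and 0.027 in BM-SSCs, with substrates on both sides of Osx+ cells. Adamts5 was higher in CD51+ BMSCs than in Osx+ cells by 2.03 in that fit (adjusted p = 6.58e-05).

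The counts depended on which arrays were in the fit. All populations share a single estimate of spread per gene, and leaving out an array of a pair also leaves its population with a single array. The part of each in the counts was not tested. With a CD45+ array left out, 1 gene passed against CD45+ cells in P-SSCs, 1 in BM-SSCs, 0 in CD51+ BMSCs and 4 in Osx+ cells, with a CD51+ array left out 2, 3, 0 and 7, and with an Osx+ array left out 2, 3, 3 and 4. With P-SSC array 1 left out the counts were 20, 17, 15 and 16, with P-SSC array 2 left out 16, 17, 15 and 16, with BM-SSC array 1 left out 11, 7, 9 and 10, and with BM-SSC array 2 left out 11, 8, 9 and 10. The shares of all probe sets that passed moved as well: in P-SSCs against CD45+ cells they were 1.13% and 0.977% without CD45+ array 1 and 2, 3.85% without either CD51+ array, 4.71% without either Osx+ array, 56.9% and 11.2% without P-SSC array 1 and 2, and 18.2% without either BM-SSC array, beside 9.77% with all arrays. In Osx+ against CD45+ cells they ran from 2.66% without CD45+ array 2 to 15.4% without either P-SSC array, in BM-SSCs from 1.03% without CD45+ array 2 to 19.8% without BM-SSC array 1, and in CD51+ BMSCs from 0.135% without CD45+ array 2 to 11.2% without either P-SSC array. Of the 43 calls over all comparisons, 33 were lost without either CD45+ array, 28 and 29 without CD51+ array 1 and 2, 29 without either Osx+ array, 5 and 7 without BM-SSC array 1 and 2, 2 without P-SSC array 2, and 0 without P-SSC array 1 or the Nes+ array. The 6 calls that held whichever array was left out were those of Mmp8 in P-SSCs, BM-SSCs and Osx+ cells, and of Mmp9, Adamts3 and Timp1 in Osx+ cells, all against CD45+ cells.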

How the data were processed

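RNA of 11 sorted samples in 6 populations (2 arrays each, 1 for Nes+ BMSCs) was hybridised to Affymetrix A430 arrays. The authors deposited log2 values for 45101 probe sets, made by RMA (background correction, quantile normalization and summarisation) with Partek GS and R, and these log2 values were used as deposited. Their number of arrays limits the precision. The platform's 64 control probe sets were not tested. Among the others 34945 carried 1 symbol, 932 several and 9160 none in the platform annotation. All 37 genes matched the RefSeq gene table, and 23 had a promoter window there.

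Populations were taken from the sample titles. A model with a mean per population over all 11 arrays was fitted with limma 3.58.1 in R 4.3.3 (5 residual and 2.65 prior degrees of freedom), two-sided, with Benjamini-Hochberg adjustment over all 45037 probe sets within each of 11 comparisons, and a gene passed at an adjusted p under 0.05. The standard error of a gene is the same in each comparison of 2 with 2 arrays. Alternatives were the groups compared alone, quantile normalization, median centring, a variance trend with robust fitting, a replicate block, a filter on dim probe sets, 1 probe set per gene, the second probe set, and leaving out arrays.

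Values are given per array for genes that passed at least once without overlap between arrays and for the 4 Timp genes. From each gene list, no more than 4 that passed were eligible per comparison, by size of difference. The genes and lists were chosen with earlier results of these data known.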

Additional observations from a re-analysis of the deposited data

How the results depend on the processing

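Counts are given in the order P-SSCs, BM-SSCs, CD51+ BMSCs and Osx+ cells against CD45+ cells, then P-SSCs, BM-SSCs and CD51+ BMSCs against Osx+ cells, P-SSCs against BM-SSCs, P-SSCs and BM-SSCs against CD51+ BMSCs, and BM-SSCs against Nes+ BMSCs, where 6, 9, 8, 11, 2, 2, 3, 0, 1, 1 and 0 genes passed with all arrays. Without array 2 of both SSC populations they were 27, 23, 24, 23, 14, 14, 20, 2, 15, 17 and 13, and all 43 calls held. These arrays were left out because they stood apart from their pairs, and without them no spread between SSC arrays entered the fit. In every comparison a far larger share of all probe sets passed in that fit than with all arrays. That the calls held there is therefore no test of them. When the fit held the groups of a comparison alone (first 10 comparisons) the counts were 0, 2, 27, 22, 0, 0, 20, 0, 0 and 0. The shares of all probe sets that passed were 0.00%, 1.75%, 41.5%, 37.4%, 0.00%, 0.00%, 18.8%, 0.00%, 0.00% and 0.00%. Of the SSC calls, only those of Mmp8 and Mmp13 in BM-SSCs against CD45+ cells were left in that fit. Median centring gave 3, 5 and 4 in the first 3, beside 11.5%, 9.49% and 5.90% of all probe sets. Quantile normalization gave 4 in CD51+ BMSCs against CD45+ cells, beside 3.04%. It gave 1 for each SSC population against Osx+ cells, beside 0.491% in P-SSCs and 0.324% in BM-SSCs. Against CD51+ BMSCs it gave 0 for each, beside 0.275% and 0.258%. A variance trend gave 1 for each SSC population against Osx+ cells, beside 0.719% in P-SSCs and 0.564% in BM-SSCs. The filter on dim probe sets (26 genes kept) gave 1 for P-SSCs against Osx+ cells, beside 1.12% of the probe sets kept. Leaving out each array in turn gave 1 to 20, 1 to 17, 0 to 15, 4 to 16, 0 to 19, 0 to 2, 0 to 6, 0 to 11, 0 to 24, 0 to 3 and 0 to 0. Of the 43 calls, 15 were lost with median centring, 13 with quantile normalization, 19 with only the groups compared, 5 with a variance trend and 0 with 1 probe set per gene. Of 24 calls of genes with a second probe set, 9 were lost with it and 2 reversed, and the losses included the BM-SSC calls against CD45+ cells of Mmp2 (adjusted p = 0.0625), Mmp23 (adjusted p = 0.0573) and Adamts5 (adjusted p = 0.0641). The second probe set of Adamts3 reversed 2 calls, to -0.16 in CD51+ BMSCs against CD45+ cells and 0.032 in P-SSCs against Osx+ cells. Where no cause is given, the cause was not tested.

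Replicate numbers were not taken to pair the arrays: the deviations of same-numbered arrays correlated at 0.784 between BM-SSCs and P-SSCs, whose second arrays both stood apart, but at 0.0115 or less in the other 9 pairs of populations (down to -0.267 for BM-SSCs with Osx+ cells). With the replicate number as a block 10 genes passed in P-SSCs against CD45+ cells (8 higher), beside 9.70% of all probe sets, and 1 in P-SSCs against Osx+ cells, where Mmp8 was lost (adjusted p = 0.0573), and the counts of the other comparisons stayed within 1.5 times.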
